A study of Mus musculus with 15 samples.

Results

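The ventricle of mice that received saline (vehicle) gives the baseline of this study, and its transcriptome is described here from 5 of the 15 RNA-sequencing libraries. The 5 libraries are those labelled Veh_H, replicates 1 to 5. All 15 mice were wild-type C57BL/6 animals aged 10 weeks. The AngII mice carried a subcutaneous pump with angiotensin II at 1000 ng/kg/min, and the AngII plus OA mice carried the same pump and also received oleic acid at 160 mg/kg in 0.3 mL a day. The vehicle mice received saline, and whether they carried a pump is not given in the sources used here. Each library is the bulk RNA of a ventricle after oligo(dT) enrichment, so a lower level can mean fewer cells of a type or less RNA per cell, and these cannot be told apart.

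The ventricular wall contracts when calcium released from the sarcoplasmic reticulum binds troponin C on the thin filament and frees actin for myosin. Calcium is then pumped back by a calcium ATPase that phospholamban restrains. The work is paid for by mitochondria that burn mostly fatty acids, with creatine kinase carrying the energy to the filaments. Many of these proteins come from small gene families whose members are divided among ventricle, atrium, skeletal muscle and smooth muscle. Which member leads in a family is therefore a signature of the tissue.

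Levels are FPKM, which counts fragments relative to gene length and to library size, as deposited by the authors for 36653 gene identifiers. FPKM is per length, which allows genes to be compared only roughly. Overlapping exons, reads shared with copies and gene length can still bear on it, as given below. Where 5 values follow each other they belong to vehicle replicates 1 to 5, and an error is an SD over these 5 libraries. The library sizes behind the vehicle FPKM were 24.6 to 26.8 M reads, and 11041 to 11245 genes reached 1 FPKM. As a check for a library deposited 2 times, no pair of vehicle libraries held the same counts within counting error (lowest chi-square per degree of freedom 59.4). The 4 cardiomyocyte markers named for these libraries, Myh6, Mb, Myl2 and Actc1, were among the 7 most abundant nuclear genes.

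Mitochondrially encoded genes formed the largest single block of the RNA. Their share of the summed FPKM was 45.3%, 45.8%, 44.6%, 50.02% and 49.5%. By estimated reads, which do not divide by gene length, the share was 26.1% ± 2.18, so the share depends on the scale. The mitochondrial genome encodes core subunits of the respiratory chain, and these were far from even. mt-Co1, the catalytic subunit of cytochrome c oxidase, was at 52022, 57249, 63137, 84125 and 72903 FPKM. It led in every library and made up 28.1% ± 4.80 of the mitochondrial FPKM. The complex III subunit mt-Cytb followed at 41438 ± 4866 FPKM and the complex I subunit mt-Nd1 at 39127 ± 4074 FPKM, with ranges that overlapped. Next came mt-Nd2 (22267 ± 2956 FPKM), mt-Nd4 (20903 ± 3782 FPKM), mt-Nd6 (11147 ± 1834 FPKM) and mt-Nd5 (6707 ± 647 FPKM).

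At the low end stood 5 mitochondrial mRNAs. mt-Atp8 averaged 133 ± 43.3 FPKM, mt-Co2 84.0 ± 25.0 FPKM, mt-Atp6 83.3 ± 14.3 FPKM and mt-Co3 26.3 ± 5.77 FPKM. mt-Nd4l was at 0, 10.6, 0, 0 and 0.274 FPKM. Of these, mt-Co2, mt-Atp6, mt-Co3 and mt-Nd4l each have a nuclear copy identical over 99.0% to 99.9% of their length in the GENCODE M21 transcripts (Gm28661, Gm10925, Gm28437 and Gm10222). The copies themselves were at 0.831 to 24.9 FPKM. mt-Nd3, with a copy 99.7% identical, was at 1289.7, 2894, 1243, 687 and 1829.7 FPKM. mt-Nd4 is identical to Gm28439 over 63.6% of its length and was still at 15815 FPKM in its lowest library. How reads shared with such copies were counted is not given in the sources used here. The part of that counting in these levels, in the mitochondrial share and in the fraction held by mt-Co1 was not tested.

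**Figure D1:**
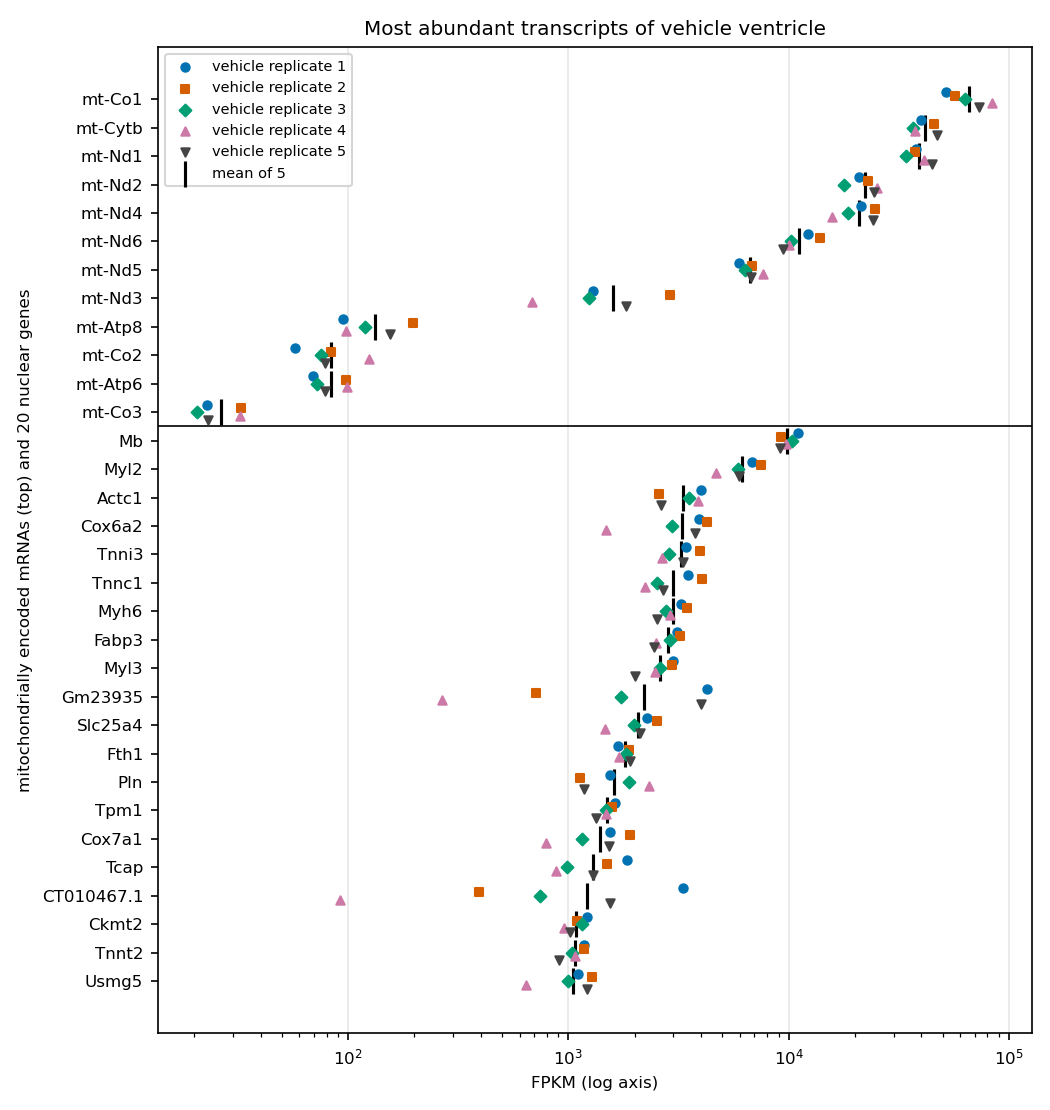
FPKM on a log axis of 12 mitochondrially encoded mRNAs (above the line) and the 20 most abundant nuclear genes (below it) in vehicle replicates 1 to 5 (points), with the mean of 5 as a tick. mt-Co1 stands at the right end of every library, Mb leads the nuclear genes, and Gm23935 and CT010467.1 spread more widely than any other nuclear gene shown.

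Contractile and mitochondrial proteins headed the nuclear genes. Mb, the oxygen-binding myoglobin, was at 10994, 9194, 10326, 9737 and 9188 FPKM, above every other nuclear gene in every vehicle library. Myl2, the ventricular regulatory myosin light chain, followed at 6798, 7471, 5897, 4683 and 5980 FPKM. Cardiac actin Actc1 averaged 3320 ± 675 FPKM, the cytochrome c oxidase subunit Cox6a2 3271 ± 1107 FPKM, cardiac troponin I (Tnni3) 3241 ± 503 FPKM and cardiac troponin C (Tnnc1) 2997 ± 754 FPKM. These ranges overlapped, so the order among them is not fixed. Cox6a2 was the least even of them, at 1481 FPKM in replicate 4 and 2958 to 4251 FPKM elsewhere. Myh6, the fast cardiac myosin heavy chain, was at 3248, 3448, 2773, 2902 and 2533 FPKM. Fabp3, which carries fatty acids through the cytosol, averaged 2839 ± 348 FPKM, and the ADP/ATP carrier Slc25a4 averaged 2068 ± 393 FPKM. The iron storage chain Fth1 was among the steadiest at this level, at 1804 ± 104 FPKM.

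A few genes carried much of the nuclear RNA. The 10 most abundant nuclear genes held 15.4% ± 1.12 of the nuclear FPKM and the 100 most abundant held 39.3% ± 2.32. Between 177 and 271 genes were needed to reach 50% of it, fewest in replicate 1 and most in replicate 4. Of the 13 cardiomyocyte markers, 10 were among those 100 genes, and of 27 nuclear genes listed for oxidative phosphorylation, 16 were. The cardiomyocyte markers alone took 13.3% ± 0.931 of the nuclear FPKM and the oxidative phosphorylation list 5.89% (4.80% to 6.63%). The 21 ribosomal protein genes listed, 2 of them among the 100, took 1.65%.

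Isoform leadership was examined in 44 gene families with 174 members. In 13 families the leading member held at least 90% of the family's FPKM in every vehicle library. In 21 further families the leader held on average at least 60%, and in 10 no member did. The leader was the highest member in all 5 libraries in 37 families, and in 35 its lowest value lay above the highest value of the second member. Of the 174 members, 113 reached 1 FPKM in every library and 24 stayed under 0.1 FPKM in all of them.

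Of the 10 contractile families, 5 were among these 13. Myh6 held 97.4% ± 0.534 of the striated myosin heavy chain FPKM. Myh7, the slow chain that predominates in the fetal mouse ventricle, was at 45.6, 41.1, 39.0, 31.8 and 41.7 FPKM. Myh7b, a divergent slow-type chain, was of the same order at 63.2, 52.5, 30.9, 20.5 and 29.7 FPKM. The skeletal chains Myh1, Myh2, Myh3, Myh4 and Myh8 stayed under 0.1 FPKM. Tnni3 held 99.97% of the troponin I transcripts, and the slow skeletal form Tnni1, which the fetal heart uses, was at 0 to 0.147 FPKM. Tnnt2 held 99.3% ± 0.153 of troponin T. Tnnc1 held 100% of troponin C, where the fast skeletal Tnnc2 was listed at 0 in all 5 libraries; 74.0% of the exon bases of Tnnc2 overlap another gene. Cardiac myosin-binding protein C (Mybpc3) held 99.6% ± 0.201 of its family.

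Light chains, actins and tropomyosins were less exclusive. Tpm1 held 91.3% ± 1.47 of the tropomyosin FPKM, followed by Tpm4 at 118 ± 21.4 FPKM. Actc1 held 85.0% ± 4.25 of the actins, and the remainder was divided between the cytoplasmic actins Actb (245 ± 60.2 FPKM) and Actg1 (150 ± 45.1 FPKM) and skeletal Acta1 (107 ± 24.0 FPKM). Smooth muscle actin Acta2 was steady at 58.9, 59.1, 67.3, 48.9 and 64.1 FPKM. Myl3 led the essential light chains with 85.4% ± 3.84, ahead of the widely expressed Myl6 at 363 ± 69.0 FPKM. Myl2 held 92.9% ± 3.51 of the regulatory light chains, and the second member by mean was the atrial chain Myl7, which lay below Myl12a (165.5, 122, 178, 135 and 113 FPKM) in replicates 1, 2 and 3. The nonmuscle heavy chains Myh9 (12.0 ± 2.27 FPKM) and Myh14 (10.4 ± 1.42 FPKM) had overlapping ranges.

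**Figure D2:**
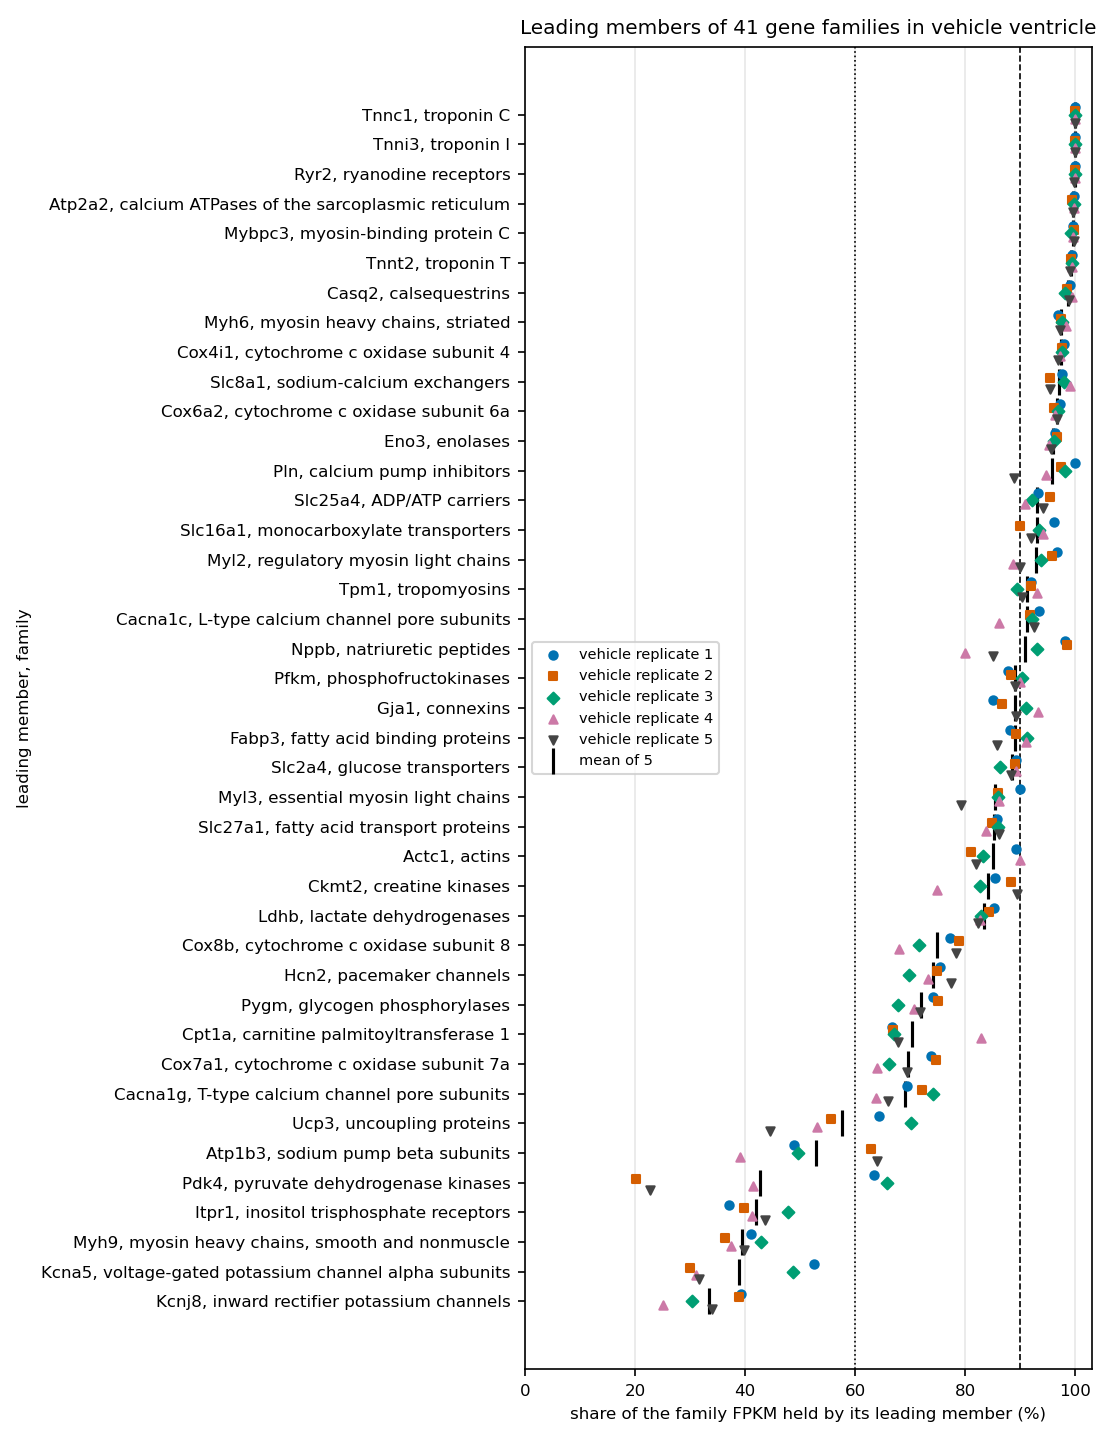
Share of each family's FPKM held by its leading member (%, horizontal axis) in vehicle replicates 1 to 5 (points) with the mean of 5 (tick), for 41 of the 44 families ordered by that mean. The dashed line marks 90% and the dotted line 60%; troponins, ryanodine receptors and calcium ATPases sit at the right edge, and potassium channels, sodium pump beta subunits and pyruvate dehydrogenase kinases spread to the left.

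Calcium handling followed the same pattern. Ryr2, the calcium release channel of the cardiac sarcoplasmic reticulum, was at 38.3, 27.8, 50.1, 47.5 and 28.7 FPKM and held 99.8% ± 0.0670 of its family. The calcium pump Atp2a2 was at 871, 565, 1043, 1399 and 734 FPKM, or 99.6% ± 0.181 of its family. Its inhibitor phospholamban (Pln) was at 1542, 1131, 1890.0, 2327 and 1173 FPKM. Ryr2, Atp2a2 and Pln were all lowest in replicate 2, and Atp2a2 and Pln were highest in replicate 4. For Pln, 64.7% of the exon bases overlap another annotated gene. Casq2, the calcium buffer of the reticulum, held 98.7% ± 0.516 of the calsequestrins at 200 ± 41.7 FPKM. The sodium-calcium exchanger Slc8a1 was at 6.77, 2.69, 5.57, 15.4 and 3.08 FPKM. Its level varied between libraries, while its share of the exchangers stayed at 95.4% to 99.0%. The inositol trisphosphate receptors were low and shared, with Itpr1 at 2.15 ± 0.277 FPKM, Itpr2 at 1.57 ± 0.151 FPKM and Itpr3 at 1.41 ± 0.0828 FPKM.

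Ion channels were divided among more members, and none of their 7 families passed 90% in every library. Cacna1c, the pore of the L-type calcium channel, was at 10.1, 11.7, 10.9, 8.43 and 11.1 FPKM and held 86.2% to 93.3% of its family. Among the inward rectifiers, Kcnj8 (22.1 ± 0.928 FPKM) and Kcnj11 (18.3 ± 3.92 FPKM), both pores of ATP-sensitive channels, stood above Kcnj2, a pore of the resting potassium current, at 6.51 ± 1.87 FPKM. Kcnj8 is also a pericyte marker, and it was the highest of the 7 in 4 of 5 libraries. Kcna5 was at 22.9, 10.6, 22.7, 12.7 and 11.2 FPKM. It led the voltage-gated potassium channels in only 3 libraries, with Kcnh2 at 10.4 ± 1.55 FPKM close behind. The transient outward current genes Kcnd2 (3.12 ± 1.18 FPKM) and Kcnd3 (2.57 ± 0.763 FPKM) were lower. Hcn2 led the pacemaker channels with 74.1% ± 2.83, and Hcn4, which marks the sinus node, was at 0.602 to 1.10 FPKM. The gap junction protein Gja1 held 89.0% ± 3.26 of the connexins at 109 ± 30.4 FPKM.

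Transporters and pumps ran from near exclusive to evenly divided. Slc25a4 held 93.1% ± 1.76 of the ADP/ATP carriers. Slc2a4, the insulin-responsive glucose transporter, was at 89.6, 89.3, 77.4, 80.8 and 74.5 FPKM, against 4.22 to 6.47 FPKM for Slc2a1. Slc16a1 held 93.1% ± 2.32 of the monocarboxylate carriers. Slc27a1 was steady at 28.1 ± 2.23 FPKM and held 85.2% ± 0.977 of the fatty acid transport proteins. Fabp3 held 89.0% ± 2.28 of the fatty acid binding proteins, and most of the rest was Fabp4 (324 ± 79.9 FPKM), which endothelium and fat express. The beta subunits of the sodium pump had no clear leader: Atp1b3 (34.7 ± 3.40 FPKM) was even while Atp1b1 ranged from 13.996 FPKM in replicate 2 to 51.0 FPKM in replicate 4.

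Among metabolic families, Cox6a2 held 96.6% ± 0.454 of subunit 6a, Cox4i1 97.4% ± 0.442 of subunit 4, Cox7a1 69.6% ± 4.67 of subunit 7a and Cox8b 74.8% ± 4.78 of subunit 8 of cytochrome c oxidase. Ckmt2, the mitochondrial creatine kinase, was at 1216, 1090.0, 1156, 957 and 1023 FPKM. The cytosolic muscle form Ckm was lower and less even, at 174, 91.2, 212, 288 and 80.1 FPKM. Ldhb, the heart-type lactate dehydrogenase, held 83.5% ± 1.23 of its family, Pfkm 89.1% ± 1.04 of the phosphofructokinases and Eno3 96.0% ± 0.588 of the enolases. Pygm led the glycogen phosphorylases with 71.9% ± 2.84, the rest being almost entirely Pygb.

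Hk2, the insulin-responsive muscle hexokinase, was at 28.1, 22.6, 31.0, 35.7 and 19.6 FPKM. The pyruvate dehydrogenase kinases had no constant leader. Pdk2 was steady at 70.2, 70.5, 69.1, 81.5 and 55.7 FPKM, while Pdk4 was at 141, 20.7, 162, 71.3 and 19.0 FPKM. Pdk4 led in replicates 1 and 3 and Pdk2 in the others. Cpt1a, the liver form of the enzyme that admits fatty acids to mitochondria, was at 8.18 ± 1.74 FPKM and the muscle form Cpt1b at 2.46 ± 1.24 FPKM. For Cpt1b, however, 81.4% of the exon bases overlap another gene (Gm44502), so this order is uncertain.

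The natriuretic peptides, hormones released by stretched heart muscle, ran against each other. Nppb was at 756, 693, 323, 316 and 332 FPKM and Nppa at 14.1, 10.5, 24.4, 79.4 and 58.2 FPKM. Nppb was thus at least 3.99-fold higher than Nppa in each vehicle library, and the libraries high in Nppb were those low in Nppa. Nppa is also made in atrial muscle, and the atrial transcripts Myl7, Sln and Myl4 stood high in the same replicates 4 and 5. The rest of the atrial list followed less closely or not at all. Dkk3 was at 9.77, 9.03, 11.1 and 12.3 FPKM in replicates 2 to 5. Pam was at 55.4 FPKM in replicate 4, but at 32.0 FPKM in replicate 3 and 32.7 FPKM in replicate 5. Bmp10 was lowest in replicate 4 (0.00832 FPKM) and highest in replicate 5 (1.57 FPKM). The part of atrial muscle in the Nppa level was not tested. For Nppa, 61.5% of the exon bases overlap Gm13054 on the opposite strand, and the strand setting of the counting is not given in the sources used here.

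Markers of other cell types were read as 21 lists with 146 members, of which 86 reached 1 FPKM in all 5 libraries. Cardiomyocyte markers summed to 31228 to 38697 FPKM, and 13 of 13 reached 1 FPKM. Titin (Ttn) averaged 30.4 ± 3.82 FPKM. Fibroblast markers summed to 852, 1011, 1488, 1412 and 1528 FPKM, led by Gsn (570.2 ± 126 FPKM) and the proteoglycan Dcn (455 ± 139 FPKM). Their collagen genes were low beside these, with Col3a1 at 25.7 ± 6.59 FPKM and Col1a1 at 10.7 ± 0.698 FPKM. Endothelial markers summed to 762, 769, 579, 520 and 753 FPKM, led by Fabp4 and followed by the junction protein Cdh5 at 61.0 ± 4.27 FPKM. Fibroblast and endothelial sums did not share an order: replicate 1 was lowest for fibroblasts and among the highest for endothelium. Fabp4 alone made up 402 of the 762 FPKM of the endothelial sum in replicate 1. By gene, replicate 1 was highest for 3 and lowest for 3 of the 12 endothelial markers. It was lowest for 8 of the 10 fibroblast markers.

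Mural and immune cells were present at lower sums. Pericyte markers summed to 269 to 347 FPKM, mostly Rgs5 (232 ± 34.9 FPKM). Smooth muscle markers summed to 96.8 to 125 FPKM, but Tagln, usually abundant in smooth muscle, was at 0 to 0.266 FPKM; 67.9% of its exon bases overlap another gene. Macrophage markers summed to 283, 376, 396, 401 and 401 FPKM, led by Lyz2 and the complement chain C1qa. T cell markers summed to 1.58 to 1.92 FPKM, and 5 of the 6 stayed under 1 FPKM in all libraries. B cell markers summed to 3.98, 19.9, 5.70, 12.1 and 15.3 FPKM and granulocyte markers to 17.0, 25.7, 15.6, 13.2 and 6.41 FPKM. The granulocyte enzyme Elane was listed at 0 in all 5 libraries. Skeletal muscle markers summed to 3.76 to 5.66 FPKM, and Myh4 was listed at 0. Haemoglobin and other erythroid transcripts summed to 1015, 1427, 1413, 2212 and 3179 FPKM, so the highest library held 3.13 times the lowest.

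Atrial and adipose transcripts separated the mice most. The atrial list summed to 39.0, 199, 274, 786 and 795 FPKM, a 20.4-fold range over libraries that the labels give as ventricle. Adipocyte markers summed to 0.377, 12.3, 12.4, 13.9 and 10.0 FPKM. Of their mean sum of 9.80 FPKM, 8.62 FPKM came from Cfd and Car3, and 0 of the 6 markers reached 1 FPKM in every library. The brown adipocyte sum (17.5, 22.4, 21.1, 19.2 and 22.1 FPKM) was mostly Cidea, at 19.6 FPKM of a mean of 20.5 FPKM. Replicate 1 was lowest on both lists and also on the fibroblast, endocardial, macrophage, B cell, mast cell, brown adipocyte and erythroid lists. It was highest on the cardiomyocyte, pericyte and conduction system lists. The conduction system sum stayed at 6.41 to 7.66 FPKM in all 5 libraries, but its members did not share an order. Irx3, its largest part, was at 5.47 FPKM in replicate 1 and 3.15 FPKM in replicate 4. The sinus node marker Hcn4 was lowest in replicate 1 (0.602 FPKM) and highest in replicate 4 (1.099 FPKM), with 0.698 FPKM in replicate 5. Gja5 was also lowest in replicate 1 (1.07 FPKM) and highest in replicate 4 (1.94 FPKM). Shox2, Cntn2 and Isl1 were highest in replicate 3.

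**Figure D3:**
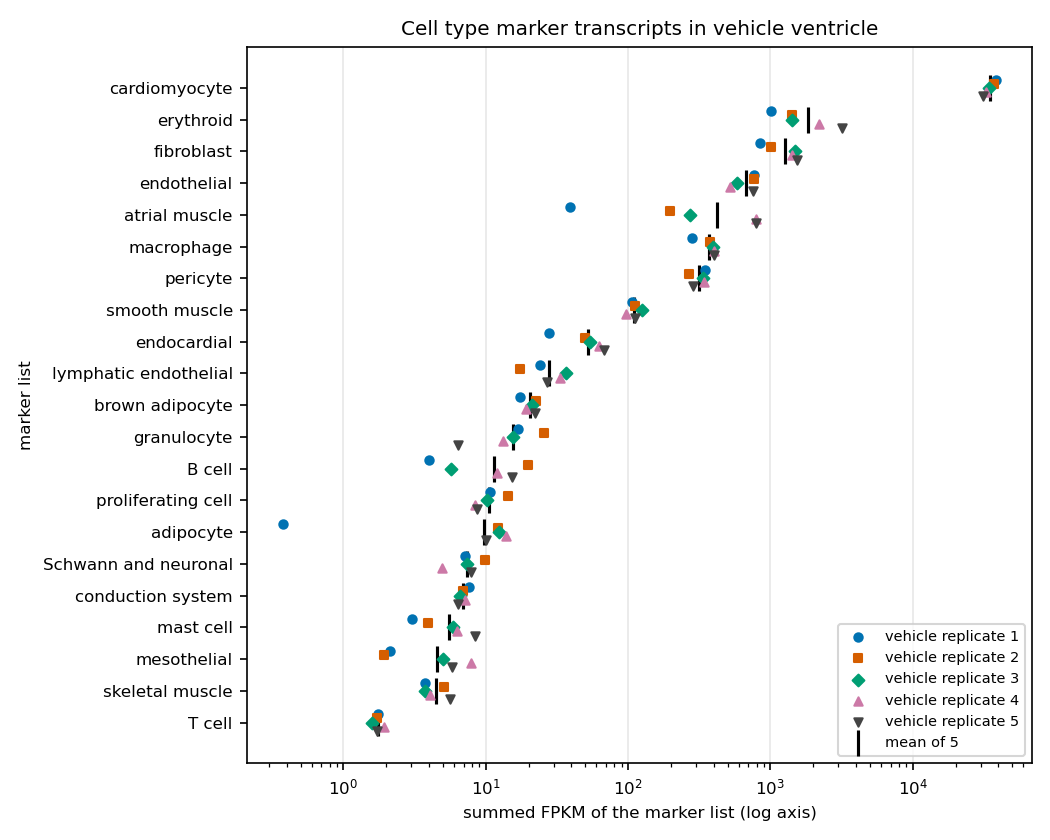
Summed FPKM of 21 marker lists on a log axis in vehicle replicates 1 to 5 (points) with the mean of 5 (tick). Cardiomyocyte markers lead every other list in every library, and the atrial and adipocyte lists have the widest spread, with replicate 1 lowest.

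Variation between the vehicle mice was measured as the SD of log2(FPKM + 1) over the 5 libraries, for the 11198 genes with a mean of at least 1 FPKM. The median SD was 0.21. An SD of at least 1 was reached by 80 genes, 32 of them protein-coding. The 4 atrial genes Myl7, Sln, Myl4 and Mybphl were among the 20 most variable genes of all types. Myl7, the atrial regulatory light chain, was at 1.56, 116, 140.2, 407 and 451 FPKM (SD 3.04). Sarcolipin (Sln), the atrial inhibitor of the calcium pump, was at 0.436, 29.8, 36.6, 130.0 and 146 FPKM (SD 2.70). Myl4, the atrial essential light chain, was at 0.794, 14.5, 31.8, 104 and 93.1 FPKM (SD 2.40). All were lowest in replicate 1 and high in replicates 4 and 5, and even there Myl7 was at most 451 FPKM beside 4683 and 5980 FPKM of Myl2.

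**Figure D4:**
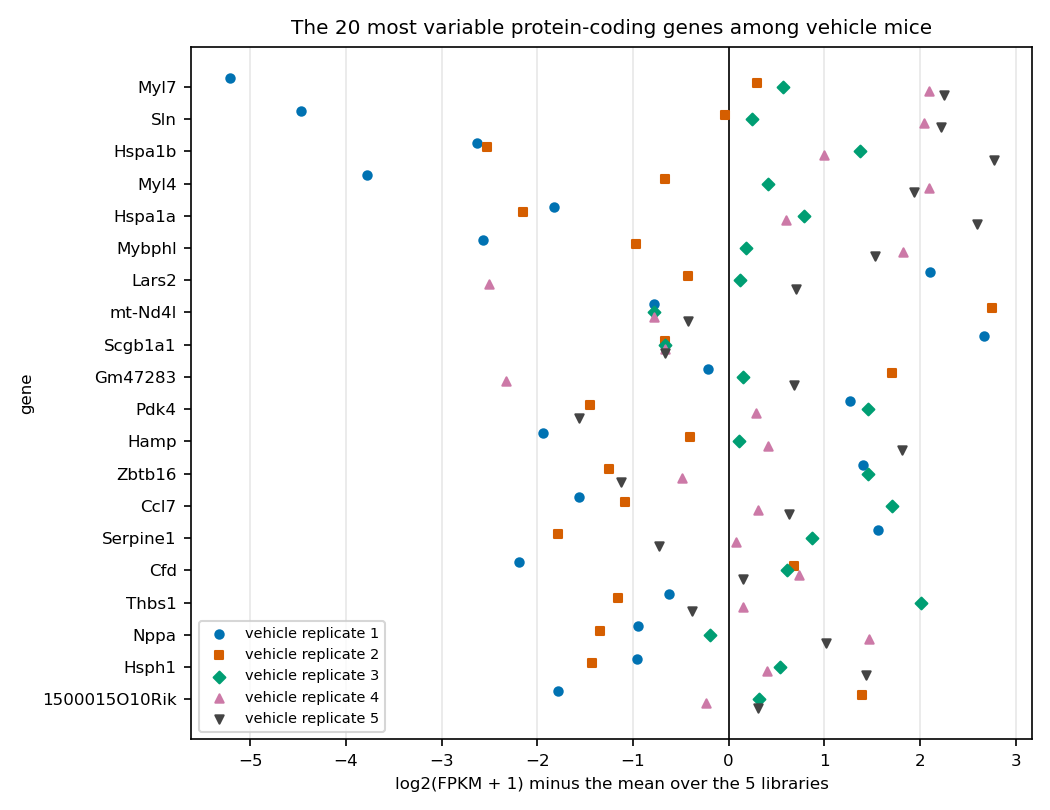
log2(FPKM + 1) minus its mean over the 5 libraries for the 20 most variable protein-coding genes (rows, most variable at the top) in vehicle replicates 1 to 5 (points). Myl7, Sln, Myl4 and Mybphl are lowest in replicate 1, heat shock genes are highest in replicate 5, and Pdk4 and Zbtb16 are high in replicates 1 and 3.

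Heat shock genes were the next group. Their products are chaperones that refold damaged proteins, and their transcription rises within minutes of heat or other protein stress. Hspa1b was at 1.40, 1.57, 37.4, 28.5 and 99.9 FPKM (SD 2.44), and its near copy Hspa1a at 2.36, 1.69, 19.6, 17.1 and 71.2 FPKM (SD 1.98). The pair was low in replicates 1 and 2, intermediate in 3 and 4 and highest in 5. The transcripts of the pair are 93.6% identical over 2701 aligned bases, so their reads cannot be assigned with certainty. The co-chaperones Hsph1 (8.06, 5.53, 24.6, 22.3 and 46.6 FPKM) and Dnajb1 (4.56, 7.49, 14.9, 16.6 and 36.9 FPKM) were also low in replicates 1 and 2 and highest in replicate 5. Hsp90aa1 was at 63.0, 38.8, 139, 107 and 183 FPKM. Of the 10 listed heat shock genes, 7 were highest in replicate 5. The constitutive chaperone Hspa8 was even, at 576 ± 59.3 FPKM, and the list's median SD was 0.65.

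The heat shock factor binds the inverted repeat GAANNTTC, so the promoters of this group were read from RefSeq (build GRCm38.p6), as the 250 bases before the start of the gene. The motif equals its own reverse complement, so a single search covers both strands. It stood in 3 of the 7 listed heat shock genes with a promoter in that table. Of all 32851 promoter windows, 6.69% held it. A gene counted if any of its windows held the motif, so the count per gene and the rate per window are unlike measures. The motif stood in 2 of 11 of the most variable protein-coding genes (Hspa1a and Hspa1b) and in 0 of 15 of the most abundant nuclear genes. The 3 heat shock genes are shown because they hold the motif, which is in capitals. They are Hspa1a (chr17:34972157-34972406, minus strand), Hspa1b (chr17:34959239-34959488, minus strand) and Hspb1 (chr5:135887669-135887918, plus strand).
Hspa1a: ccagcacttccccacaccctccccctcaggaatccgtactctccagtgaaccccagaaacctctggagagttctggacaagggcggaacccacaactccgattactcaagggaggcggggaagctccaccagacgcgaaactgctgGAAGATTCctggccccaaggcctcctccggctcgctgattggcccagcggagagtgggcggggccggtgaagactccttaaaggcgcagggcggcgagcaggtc
Hspa1b: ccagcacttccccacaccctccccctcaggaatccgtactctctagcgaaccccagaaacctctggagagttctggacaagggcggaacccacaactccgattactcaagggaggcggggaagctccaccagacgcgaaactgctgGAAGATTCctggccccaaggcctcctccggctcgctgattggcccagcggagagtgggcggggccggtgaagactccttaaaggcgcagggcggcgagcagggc
Hspb1: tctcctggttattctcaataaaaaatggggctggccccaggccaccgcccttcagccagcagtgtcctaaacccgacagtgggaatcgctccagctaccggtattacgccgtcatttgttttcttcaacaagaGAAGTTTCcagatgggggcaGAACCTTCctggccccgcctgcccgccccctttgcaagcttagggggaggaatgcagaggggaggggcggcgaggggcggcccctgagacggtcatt
The windows of Hspa1a and Hspa1b differ at 3 of 250 bases and hold the motif at the same distance from the start. Hspb1 holds it 2 times, yet its level was much more even than that of the pair, at 204, 147, 179, 136 and 283 FPKM (SD 0.42). The match is a description of letters in these windows and not a measured binding site.

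Genes that answer to glucocorticoids, the adrenal stress hormones, had the highest median SD of the 13 lists, at 0.80 over 11 genes. Pdk4 (SD 1.45) has been given above. The transcription factor Zbtb16 was at 10.2, 0.771, 10.6, 2.02 and 0.932 FPKM (SD 1.34), Klf9 at 15.3, 2.87, 22.6, 19.2 and 6.71 FPKM (SD 1.09) and the steroid receptor co-chaperone Fkbp5 at 7.06, 1.13, 7.93, 2.32 and 1.84 FPKM (SD 0.93). The cell cycle inhibitor Cdkn1a was at 62.9, 14.2, 66.0, 33.0 and 30.8 FPKM (SD 0.88). Replicates 1 and 3 were the highest for Pdk4, Zbtb16, Fkbp5 and Cdkn1a, and replicate 2 was the lowest for 8 of the 11 genes. Replicate 2 was also the lowest for 26 of the 50 most variable protein-coding genes and for 7 of the 15 housekeeping genes. Such counts of highest and lowest libraries were not made over all 11198 ranked genes, here or for the other lists. A count is therefore not shown to be particular to its list. The metal-binding Mt1 was at 424, 165, 317, 108 and 162 FPKM (SD 0.80). Corticosterone was not measured here, and Pdk4 is also on the fasting list, where Angptl4 (5.19, 2.14, 7.95, 2.15 and 1.41 FPKM) and Ucp3 (21.8, 9.70, 19.0, 11.7 and 6.57 FPKM) had replicates 1 and 3 highest as well. The 13 genes of that list had a median SD of 0.32. Of them, 5 were highest in replicate 1, 3 in replicate 3, 2 in replicate 2, 2 in replicate 4 and 1 in replicate 5.

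Immediate early genes, which are switched on within minutes of a stimulus, had a median SD of 0.45 over 20 genes. Nr4a3 was at 2.06, 0.843, 13.9, 5.17 and 4.72 FPKM (SD 1.14), Fos at 5.72, 16.2, 9.99, 22.3 and 25.6 FPKM (SD 0.82) and Egr1 at 20.02, 35.2, 18.1, 67.8 and 41.3 FPKM (SD 0.76). These 3 did not share an order: Nr4a3 was highest in replicate 3, Fos in 5 and Egr1 in 4. Egr2 was also highest in replicate 4, at 0.824, 0.851, 1.97, 6.30 and 3.22 FPKM (SD 0.85). Of the 20 genes, 8 were highest in replicate 4 and 5 in replicate 5. Replicates 1, 2 and 3 were highest for 1, 2 and 4 genes. Replicate 4 was lowest for 1 gene and replicate 5 for 0. Clock genes had a median SD of 0.41 over 17 genes. The output gene Dbp was at 9.79, 3.12, 1.37, 2.06 and 2.58 FPKM (SD 0.83), Ciart at 5.12, 1.03, 1.26, 0.974 and 1.31 FPKM (SD 0.69) and Per1 at 19.1, 6.24, 7.34, 11.3 and 12.5 FPKM (SD 0.59). Replicate 1 was the highest library for 9 of the 17. The time of day at which hearts were taken is not given in the sources used here, and its part was not tested.

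**Figure D5:**
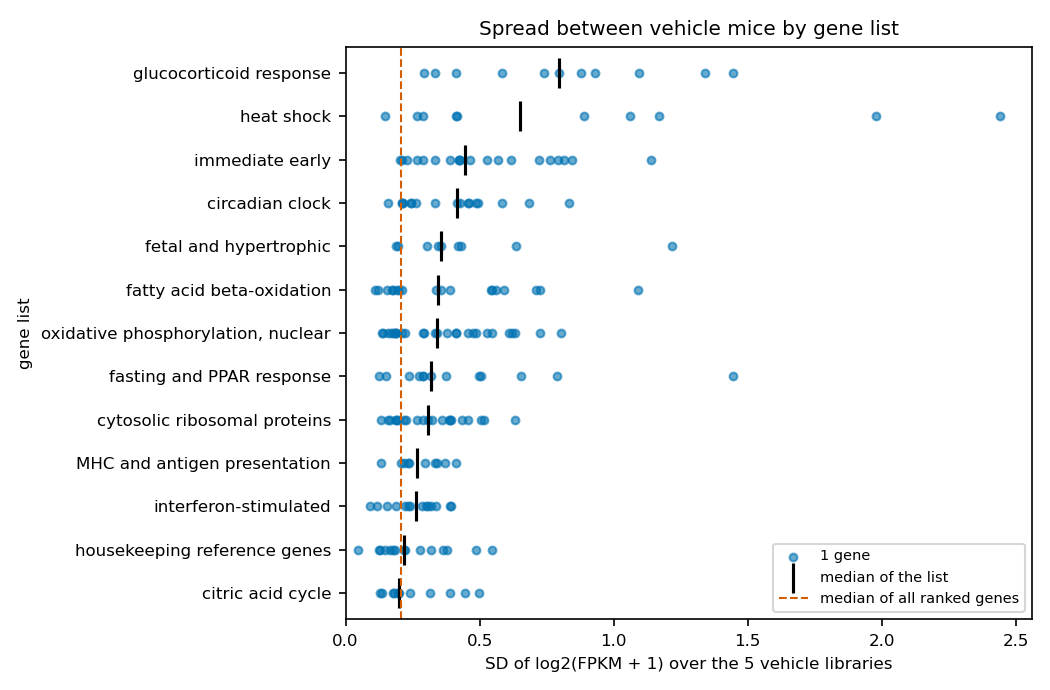
SD of log2(FPKM + 1) over the 5 vehicle libraries (horizontal axis) for each gene (points) of 13 lists, with the median of the list (tick) and the median of all 11198 ranked genes (dashed line, 0.21). The glucocorticoid and heat shock lists have the highest medians, and the housekeeping and citric acid cycle lists lie around the dashed line.

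Energy genes had lower median SDs than the heat shock, glucocorticoid, immediate early and clock lists, but with a split. Those of oxidative phosphorylation and beta-oxidation still lay above the 0.21 of all ranked genes. In these 2 lists, 10 of 27 and 7 of 18 genes were in the top 10% by SD. Of the 27 oxidative phosphorylation genes (median SD 0.34), 15 were lowest in replicate 4 and 14 highest in replicate 2. Ndufa2, a small complex I subunit, was at 484, 767, 375, 181 and 624 FPKM. Uqcrc2, a core subunit of complex III, ran the other way at 183, 92.5, 223, 272 and 90.7 FPKM. Of the 18 beta-oxidation genes (median SD 0.35), 12 were highest in replicate 4 and 12 lowest in replicate 5. Acadm, the medium-chain dehydrogenase, shows both at 166, 120, 209, 271 and 108 FPKM. Ribosomal protein genes (median SD 0.31) were lowest in replicate 4 for 16 of 21 and highest in replicate 2 for 15. Gene length moved with this split: the 223 protein-coding genes with under 1000 exon bases had a median deviation from their 5-library mean of -0.38 on the log2 scale in replicate 4 and of 0.29 in replicate 2. For the 4411 genes over 5000 exon bases the medians were 0.05 in replicate 4 and -0.05 in replicate 2. The part of length in these results was not tested.

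Genes annotated as ribosomal, small or other noncoding RNA filled much of the rest of the list of variable genes. Of the 20 most variable genes of all types, 8 were protein-coding and 7 were miRNA genes. CT010467.1, annotated as ribosomal RNA, was at 3332, 392, 745, 92.3 and 1544 FPKM. Rn7sk, a regulator of transcription elongation, was at 168, 16.5, 35.2, 5.08 and 83.2 FPKM, and Rpph1, the RNA of ribonuclease P, at 55.8, 4.72, 12.4, 0.351 and 17.0 FPKM. For CT010467.1 and Rpph1, 73.9% and 73.0% of the exon bases overlap another gene. Gm23935, annotated as a miRNA gene, was at 4277, 709, 1731, 267 and 3987 FPKM. All 4 were highest in replicate 1 and lowest in replicate 4, as were the mitochondrial ribosomal RNAs mt-Rnr2 (15351, 8397, 10421, 6019 and 12982 FPKM) and mt-Rnr1 (12712, 8750.4, 7784, 4935 and 10412 FPKM). Together, ribosomal, small and miscellaneous RNA genes took 3.80%, 0.886%, 1.45%, 0.531% and 2.84% of the nuclear FPKM. The protein-coding Lars2, a mitochondrial leucyl-tRNA synthetase, followed the same order at 335, 57.6, 84.1, 12.8 and 127 FPKM. The miRNA genes Gm24187, Gm24270 and Mir133a-2 were also highest in replicate 1 and lowest in replicate 4. Other miRNA genes, at 0 to 49 estimated reads, were not. Mir99a was highest in replicate 2, Mir23b was highest in replicate 3, and Mir27b was at 0 in replicate 5. Since the libraries were enriched with oligo(dT), these values also measure what passed that step, and the part of the enrichment was not tested.

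At the other end were genes that hardly differed between mice. Among genes with a mean of at least 10 FPKM, the ubiquitin ligase gene March5 was at 28.4, 28.8, 29.0, 29.0 and 29.1 FPKM (SD 0.01). Copz1, a vesicle coat subunit, averaged 26.5 ± 0.437 FPKM (SD 0.02), and the SDs of Ascc1 and Pigp were 0.02 and 0.03. Eno1, the enolase of most tissues, was at 24.4, 24.3, 25.0, 24.9 and 23.8 FPKM (SD 0.03), while the muscle form Eno3 ranged from 508 to 735 FPKM. Of the housekeeping list (median SD 0.22), Tbp had the lowest SD at 0.05, and Actb, at 170 to 291 FPKM, had 0.38.

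The leader shares were the 1 readout compared with exposed ventricles, to see which family balances of the vehicle heart differ under angiotensin II. All 10 exposed libraries (AngII and AngII plus OA) were set against the 5 vehicle libraries with a 2-sided exact permutation test of the mean share, adjusted over 44 families by Benjamini-Hochberg. Of the 44 families, 0 were called, or 0%. At an unadjusted p under 0.05 there were 7. The smallest p of 10 against 5 libraries is 0.000666, so a call was possible.

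The 3 families with the smallest p were the L-type calcium channels, the phosphofructokinases and the lactate dehydrogenases. Cacna1c held 92.1%, 95.0% and 97.4% of the L-type channel FPKM (lowest, median, highest) in exposed libraries and 86.2%, 92.1% and 93.3% in vehicle libraries. The means differed by 4.01 percentage points (exact permutation p = 0.00266, adjusted p = 0.117), and 9 of 10 exposed libraries lay above every vehicle library. The second member, the skeletal pore Cacna1s, averaged 0.342 ± 0.140 FPKM in exposed and 0.816 ± 0.234 FPKM in vehicle libraries. Pfkm held 79.98%, 86.3% and 88.6% in exposed and 87.7%, 89.1% and 90.2% in vehicle libraries, a difference of -3.54 points (exact permutation p = 0.00866, adjusted p = 0.190). Ldhb held 78.6%, 81.4% and 84.2% in exposed and 82.2%, 82.9% and 85.2% in vehicle libraries, a difference of -2.37 points (exact permutation p = 0.0147, adjusted p = 0.215). With AngII libraries alone the difference was -5.46 points for Pfkm and -3.46 points for Ldhb, and with AngII plus OA libraries alone -1.62 points for Pfkm and -1.28 points for Ldhb. The difference between the AngII and AngII plus OA values was not tested. None passed the adjustment with all 15 libraries, which does not show that these balances were alike. Cacna1c was called without AngII plus OA replicate 3 and Ldhb without AngII plus OA replicate 5 (exact permutation, adjusted p = 0.0440 for each).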

How the data were processed

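Ventricle RNA was enriched with oligo(dT) beads and sequenced on an Illumina HiSeq2000, per the labels' protocols, with 5 biological replicates in each of 3 groups. The authors deposited FPKM for all 15 libraries in 1 table. Per the submitters' processing notes, reads were aligned with HISAT2 2.0.4, and a build called mm8 is listed. Not given in the sources used here are the program that counted reads, its gene models, whether it used strand, how it handled shared reads and what computed FPKM. Every column matched a sample title.

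Symbols, biotypes and exon lengths came from GENCODE M21 (36499 of 36653 identifiers), and no coordinates beyond the RefSeq promoter windows are printed. The step of FPKM per read gave estimated reads, whole within 0.02 for 84.0% to 84.7% of genes. Exon overlaps were found with bedtools 2.31.1 and nuclear copies of mitochondrial genes with BLAST 2.17.0, both on M21 transcripts. Levels within the vehicle libraries were described without tests; an exact paired permutation test of 2 genes over 5 libraries cannot go below p = 0.0625. Spread is the SD of log2(FPKM + 1) where the mean was at least 1 FPKM. Means, SDs and permutation tests used numpy 2.4.6 and scipy 1.17.1 and were tested on simulated data. A p-value sets the difference of group means against the differences after relabelling the libraries, so it rests on the spread between these libraries.

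Named genes were the 20 most abundant nuclear genes, the mitochondrial mRNAs, the leading members of families, the 3 most abundant markers of a list and markers at 0, the 20 most variable genes, the extremes of each list and the 5 steadiest genes; other genes named were chosen after their values were seen. Not all that the rule names are printed, and some family members are not reported here. The members, lists and families were chosen with earlier results of these data known. Alternatives covered the length scale, thresholds, pseudocount, filters, rescaling, the replicate block and leaving out each library.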

Additional observations from a re-analysis of the deposited data

Results flagged for a closer look

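Values of the 5 vehicle libraries were examined for a single library far from the others, in 149 sets of 5 values, and 10 sets (6.71%) held one. Chance alone flags about 1 in 20 sets of unselected values. The sets of Hspa1a, Mir99a, mt-Nd4l, Scgb1a1 and Thbs1 belong to genes listed for their spread, so that rate is no comparison for them. In replicate 1, the adipocyte markers summed to 0.377 FPKM against 10.0 to 13.9 FPKM in the other vehicle libraries, and the macrophage markers to 283 FPKM against 376 to 401 FPKM. The same replicate held 9.10 FPKM of Scgb1a1, the secretoglobin of airway club cells, which was listed at 0 in the other 4. In replicate 2, mt-Nd4l stood at 10.6 FPKM against 0 to 0.274 FPKM, and the miRNA gene Mir99a at 30.7 FPKM against 0 to 8.14 FPKM. In replicate 3, the matricellular gene Thbs1 stood at 66.7 FPKM against 6.54 to 17.6 FPKM. In replicate 4, Cacna1c held 86.2% of the L-type channel pore FPKM against 91.8% to 93.3%, and Cpt1a held 82.8% of its family against 66.7% to 67.7%. In replicate 5, Hspa1a stood at 71.2 FPKM against 1.69 to 19.6 FPKM, and Ryr2 held 99.7% of its family against 99.8% to 99.9%. Why these libraries stand apart was not tested.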

How the results depend on the processing

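The share of the 10 most abundant nuclear genes was 12.0% by estimated reads in place of 15.4% by FPKM. The mitochondrial share was 26.1% by estimated reads and 42.1% with mitochondrial mRNAs alone, in place of 47.1%. With a dominance threshold of 80%, 25 families passed in place of 13. Of the variable genes, the number with an SD of at least 1 was 233 with a pseudocount of 0.1, 41 with a mean FPKM of at least 5 and 32 among protein-coding genes, in place of 80. The 20 most variable genes shared 12 with the list at a pseudocount of 0.1, 4 with the list by coefficient of variation, 8 with the list restricted to protein-coding genes and 12 with the list without replicates 1 and 5, the last 2 being alternatives chosen after seeing the data. Leaving out each library gave 68 to 98 variable genes, 12 to 18 shared among the 20, 13 to 14 dominant families, 86 to 91 markers, a top 10 share of 14.9% to 15.6% and a mitochondrial share of 46.3% to 47.7%. The tests of leader shares called 0 families under AngII alone, AngII plus OA alone, the log2 ratio, both other filters and without AngII replicate 2, and 0 to 1 when each library was left out. For AngII alone and AngII plus OA alone, the exact permutation test of 5 against 5 libraries cannot go below p = 0.00794. A single family could therefore not pass the adjustment there, and these 0s do not decide whether balances differed. The cause of the shifts between settings was not tested. A replicate block called 0 families as well, but 5 pairs cannot go below p = 0.0625; same-numbered libraries correlated between -0.37 and 0.28 with 4 of 10 pairs over 0.1, so the numbers were not taken to pair the mice. Genes near 1 FPKM and families of low sum are limited by depth.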

Other observations

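The genes that varied most among vehicle mice also varied within the exposed groups. Of the 20 most variable protein-coding genes of vehicle ventricle, 18 were in the top 10% by SD within the 5 AngII libraries and 18 within the 5 AngII plus OA libraries. Over all genes, the median SD of log2(FPKM + 1) was 0.26 in AngII, 0.16 in AngII plus OA and 0.21 in vehicle ventricles, and these were not tested against each other. Hspa1b was at 2.24, 0.870, 2.86, 11.4 and 1.21 FPKM in AngII replicates 1 to 5, at 2.16, 3.97, 3.08, 9.83 and 21.2 FPKM in AngII plus OA replicates 1 to 5, and at 1.40, 1.57, 37.4, 28.5 and 99.9 FPKM in vehicle replicates 1 to 5. The ranges of the 3 groups overlapped.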
